A study of Mus musculus with 4 samples.

Results

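The potassium channel genes of mouse were the 92 genes, of 55418 in the count table, whose symbol starts with Kcn, continues with letters and ends in a number. The antisense transcript Kcnq1ot1 was not among them. The rule uses symbols and no measured value, but it was set with earlier results of these data known. All 92 are annotated as protein-coding genes. Their expression was measured by RNA-seq in mouse embryonic stem cells (ESCs) of the line E14, whose strain is labelled 12910la. The cells grew on gelatin in medium with serum and LIF, a cytokine that maintains the pluripotent state. Libraries came from 2 biological samples of wild-type (WT) ESCs and from 2 clones of Pim3-/- ESCs, in which CRISPR/Cas9 had disrupted Pim3, a serine/threonine kinase gene. Both groups had the same parental line and medium. Each Pim3-/- library is a single clone, so a difference between the groups cannot be told apart from differences between clones and parental cultures.

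Potassium channels let potassium ions cross membranes along their electrochemical gradient. In most cells this flow sets the resting membrane potential, and in neurons and muscle it ends the action potential and limits firing. Voltage-gated and calcium-activated channels and the inward rectifiers assemble from 4 pore subunits, whereas the K2P channels, which have a pair of pore domains in each subunit, assemble as dimers and pass background currents. Auxiliary subunits such as KCHIP, KCNE, Kvbeta and BK beta proteins bind the pore subunits and alter their gating or their transport to the cell surface. ESCs are not excitable cells, and most of these genes are better known from brain, heart, kidney and pancreatic islets.

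Library totals were 22029427 to 25668307 counts. Levels are given as counts or as CPM (counts per 1000000 counts, after scaling by the TMM factors of edgeR), and a level per length is CPM per kb of exon. Where a library shows a count of 0, up to 3 counts are allowed by sampling, corresponding to 0.112 to 0.157 CPM depending on the library and covers counting error only. Pim3 had 4392 and 4953 counts in WT against 4970 and 4804 in Pim3-/- libraries (log2 fold change -0.27, standard error (SE) 0.17, adjusted p = 0.251 by the quasi-likelihood test of edgeR). The gene was edited at sites inside its exons, which need not remove its transcript, so the Pim3 count does not check the labels, and directions are those between libraries as labelled. Of 10 pluripotency markers, summed CPM were 10000 and 9020 in WT and 6000 and 5600 in Pim3-/- ESCs, with 1 marker higher and 4 lower. All 10 had counts in every library. Sums were higher in both Pim3-/- libraries for markers of primitive endoderm (8 of 9 tested higher, summed CPM 42.3 and 54.3 in WT against 273 and 256), of 2-cell-like cells (8 of 10 tested higher, 22.7 and 18.0 against 168 and 53.1) and of cardiac and smooth muscle (5 of 7 tested higher, 13.5 and 14.2 against 28.6 and 26.0). Trophoblast markers were mixed (3 of 8 tested higher and 0 lower, 88.9 and 86.5 against 101 and 102). Among them Krt8 and Krt18, with the highest levels, had log2 fold changes of -0.17 and -0.58 and did not pass the test. Of all tested genes, 17.6% were higher and 16.2% lower. Of 10 neural markers 1 was higher and 2 were lower (985 and 868 against 528 and 508, with Dcx at 0 in every library), and of 10 fibroblast markers 1 was higher (25.6 and 24.4 against 30.1 and 28.7, with Lum, Fap and Prrx1 at 0). The part of such cells in the results that follow was not tested. In these bulk libraries, a change in the number of cells that express a gene and a change in RNA per cell cannot be told apart.

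Potassium channel genes were sparsely expressed in WT ESCs, and more of them were detected in Pim3-/- ESCs. Of the 92 genes, 31 and 30 had no count in the WT libraries, against 8 and 10 in the Pim3-/- libraries. At least 10 counts were reached by 29 and 34 genes in WT and by 46 and 48 genes in Pim3-/- ESCs. There were 21 genes at 0 in both WT libraries that had counts in at least 1 Pim3-/- library, and 16 of these had counts in both. Kcnb2, Kcne4, Kcnk15, Kcna10 and Kcnj1 had none in any library. Summed over the 92 genes, levels were 162 and 166 CPM in WT and 243 and 241 CPM in Pim3-/- ESCs. The WT libraries, with fewer detected members, had the higher total counts. Their TMM factors of 0.828 and 0.883 were nevertheless below those of the Pim3-/- libraries, 1.168 and 1.172. Detection was not counted over all 55418 genes, so the rise in detected members is not shown to be particular to potassium channel genes.

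A single gene, Kcnk5, was far above the other members. It encodes the K2P channel TASK-2, a background channel that responds to extracellular pH. Kcnk5 had 685 and 884 counts in WT libraries against 1511 and 1487 in the Pim3-/- libraries, between 22.1% and 23.9% of the counts of all 92 genes in each library. Its level per length averaged 11.0 CPM per kb in WT and 16.8 CPM per kb in Pim3-/- ESCs. The next levels in WT were those of Kcns3 (2.71 CPM per kb), Kcnh2 (2.55), Kcnk4 (2.51), Kcnk1 (2.44) and Kcnab3 (2.22). These neighbours lay close together and their order was not tested. In Pim3-/- ESCs the second level was that of Kcnj4 at 3.69 CPM per kb, which was 13th in WT, while Kcns3 came 13th at 1.39 CPM per kb. Kcnj12 (1.98 and 3.02 CPM per kb), Kcnd1 (1.94 and 1.93) and Kcnk6 (1.61 and 2.23) completed the 10 highest by the mean of all libraries. Levels per length of all members spread over several orders of magnitude in both groups.

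**Figure D1:**
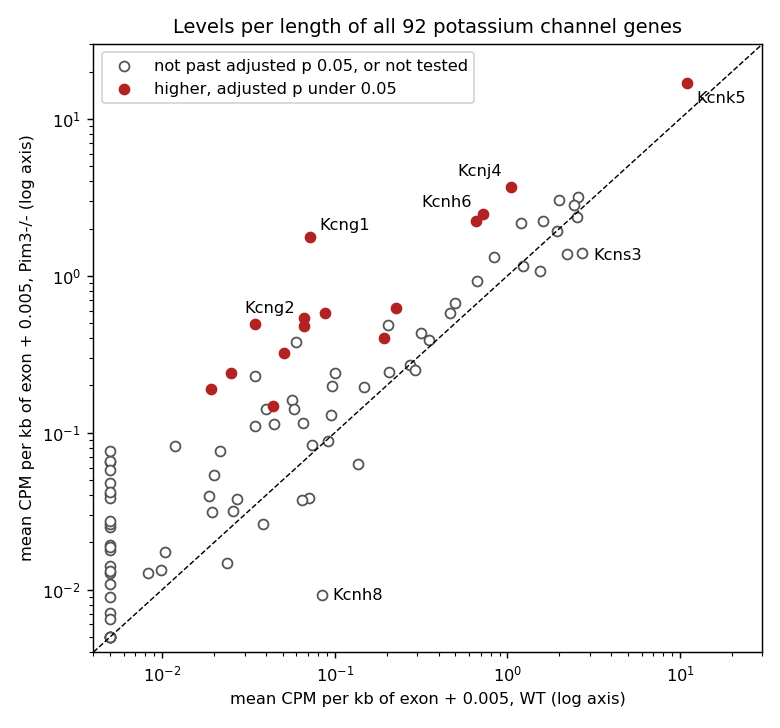
Levels of all 92 potassium channel genes in WT (x axis) and Pim3-/- ESCs (y axis), as mean CPM per kb of exon plus 0.005, on log axes. Each point is a gene, filled where it was higher at an adjusted p under 0.05, and the dashed line marks equal levels. Kcnk5 stands at the top right, most filled points lie well above the line, and the column at the left edge holds the 26 genes with no WT counts.

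Among the members with enough counts for a test, those that changed went up. The filter on low counts kept 18444 genes, of which 43 were members. Of these 43, 15 (34.9%) were higher in Pim3-/- ESCs at an adjusted p under 0.05 and 0 were lower, where 17.6% of all tested genes were higher and 16.2% were lower. At an unadjusted p under 0.05, 20 members were higher and 1, Kcns3, was lower. The share of all tested genes at that threshold was not counted. The Wald test of DESeq2 called 12 members higher and 1 lower, against 13.9% and 17.3% of all tested genes. At least 3-fold higher were 12 members (27.9%), against 8.47% of all tested genes, and 0 were at least 3-fold lower, against 1.38%. The median log2 fold change was 0.61 for tested members and 0.07 for all tested genes. WT and Pim3-/- libraries did not overlap for 27 members with higher and 5 with lower Pim3-/- values, and overlapped for 11. Of all tested genes, 38.3% were without overlap and higher and 34.2% without overlap and lower.

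Members were weakly expressed, and this bears on the comparison with all genes. The median level of tested members was 2.17 CPM, against 11.5 CPM for all tested genes. Among the 5372 tested genes within the middle range of member levels, from 0.75 to 5.9 CPM, 22.9% were higher, 4.08% were lower and the median log2 fold change was 0.46. The filter also let in 11 members that had under 10 counts in both WT libraries and passed through the Pim3-/- libraries, and 9 of the 15 genes that went up were among these. A gene let in this way had to have the higher counts there, so shares over tested members are descriptions of the test. No member passed through the WT libraries alone. Of the 27 members with at least 10 counts in every library, 6 were higher and none lower under a fit restricted to such genes, in which 16.9% of all genes were higher. Scaling by library totals in place of TMM factors shifted all genes alike, with medians of 0.52 for all tested genes and 1.06 for members. The gap between these medians, 0.54, was 1.09 without a filter and 0.45 with at least 10 counts in every library. With that scaling 24 members were higher and 0 lower, and 35.8% of all tested genes were higher and 5.92% lower.

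Most single calls needed both WT libraries. Without WT replicate 1, 12 of the 15 calls were lost and 3 members were called higher in all, while 2.03% of all tested genes were higher. Without WT replicate 2, 12 calls were likewise lost and 3 members were higher, with 2.95% of all tested genes higher. With 1 library left in a group, that library is taken to vary like those of the other group. Without Pim3-/- replicate 1 or 2, 21 and 22 members were higher, and 3 and 1 lower, while 28.3% and 25.5% of all tested genes were higher and 27.5% and 25.3% lower. Kcng1 and Kcnt1 were the only genes of the 15 that passed the test under every alternative in which they were tested, and none of the 15 had a negative fold change under any alternative.

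**Figure D2:**
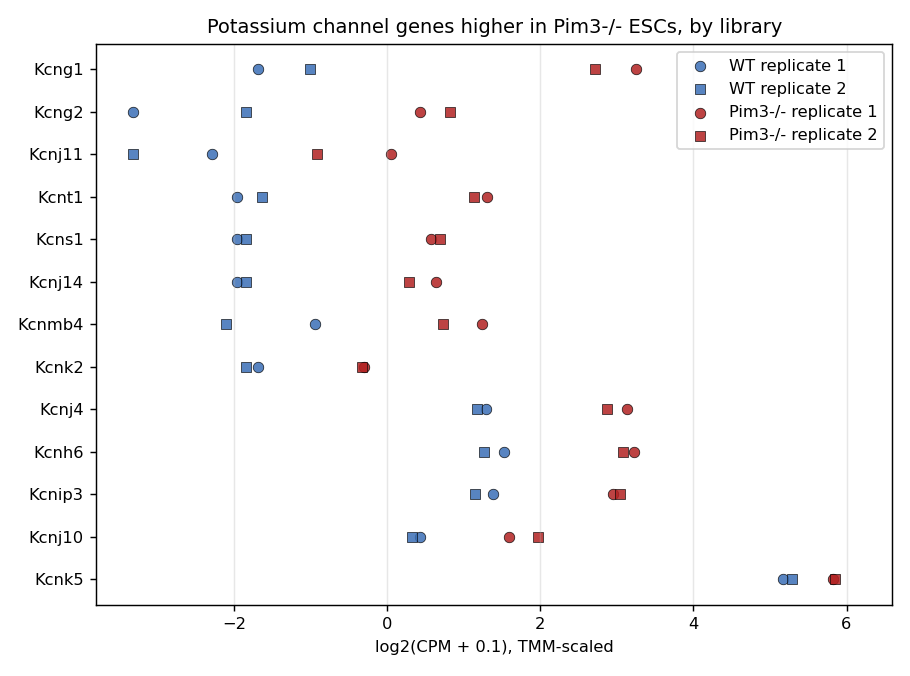
CPM in each of the 4 libraries for 13 of the potassium channel genes higher in Pim3-/- ESCs, on a log2 scale after adding 0.1 CPM. Each point is a library, coloured by group, and genes are ordered by fold change. In each of the 13 genes both Pim3-/- points lie above both WT points.

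The largest fold change was that of Kcng1, a subunit that cannot form channels alone. The Kcnf, Kcng, Kcns and Kcnv genes encode such silent subunits, which join pore-forming Kv subunits and alter their gating. Of these 10 genes, 6 were tested, and 3 of them, Kcng1, Kcng2 and Kcns1, were higher. Kcng1 (chr2:168260117-168281736, minus strand, GRCm38), which encodes Kv6.1, had 4 and 9 counts in WT libraries against 250 and 166 in the Pim3-/- libraries. It went from 0.303 CPM ± 0.133 (SD, n = 2) to 7.90 CPM ± 2.07 (SD, n = 2). Its log2 fold change of 4.66 (SE 0.44, adjusted p = 0.00273 by the quasi-likelihood test of edgeR) was the largest of any tested member, and it moved Kcng1 from place 37 to place 12 among members by level per length. Kcng2 (Kv6.2) had 0 and 4 counts in WT against 33 and 43 in Pim3-/- ESCs, and Kcns1 (Kv9.1) had 3 and 4 against 37 and 39. Their log2 fold changes were 3.87 (SE 0.82, adjusted p = 0.0126) and 3.08 (SE 0.53, adjusted p = 0.00725). All 3 genes had at most 9 counts in each WT library and at least 33 in each Pim3-/- clone. Without WT replicate 1, the adjusted p of Kcng2 was 0.0893, and its range over all alternatives was 5.73e-07 to 0.0893. The log2 fold change of Kcng2 was 2.96 without WT replicate 1 and 8.10 without WT replicate 2. The log2 fold change of Kcns1 lay between 2.95 and 3.12 with 1 library left out, and its call was lost when either WT library was left out.

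Kcns3, the member of the same group that was best expressed in WT ESCs, went the other way without passing the test. It encodes Kv9.3 and had 149 and 212 counts in the WT libraries against 148 and 83 in the Pim3-/- libraries, that is, 8.57 CPM ± 1.12 against 4.38 CPM ± 1.64 (SD, n = 2 each). The libraries did not overlap in CPM, the log2 fold change was -0.97 (SE 0.33) and the adjusted p was 0.0538, just outside the threshold. The call was made under 6 alternatives, with adjusted p-values from 3.83e-07 to 0.238 over all of them, and the log2 fold change lay between -1.43 and -0.65 when a library was left out. Kcnf1 (Kv5.1), also just outside, had 6 and 4 counts in WT against 17 and 22, a log2 fold change of 1.60 (SE 0.58, adjusted p = 0.0654). Kcng4 had 9 and 5 against 13 and 12 counts (adjusted p = 0.551). The difference between Kcns3 and the 3 genes that were higher was not tested.

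None of the tested Kcna, Kcnc and Kcnd genes, which encode voltage-gated pores, passed the test. Of the 8 Kcna genes, which encode the Shaker-type channels, 7 had no counts in either WT library and 3 had at most 3 counts in every library. Kcna7 was the only one tested, with 20 and 25 counts in WT against 37 and 39 (log2 fold change 0.43, adjusted p = 0.434). Kcnd1, of the Kv4 channels that carry the transient A-type current, had 182 and 250 counts against 260 and 275, or 10.3 CPM ± 1.09 and 10.2 CPM ± 0.655 (SD, n = 2 each). Its log2 fold change was -0.01 (SE 0.23) and turned to 0.44 with library totals as scaling. Kcnc4, of the fast Kv3 channels, had 4 and 11 against 21 and 24 counts (log2 fold change 1.27, SE 0.56, adjusted p = 0.117).

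In the ether-a-go-go group, Kcnh6 rose while its relative Kcnh2 did not pass the test. Both encode channels of the ERG type. Kcnh6 (chr11:106008124-106034549, plus strand, GRCm38) had 53 and 52 counts in WT against 246 and 215 in Pim3-/- ESCs. That is 2.53 CPM ± 0.333 against 8.78 CPM ± 0.620 (SD, n = 2 each), a log2 fold change of 1.79 (SE 0.28, adjusted p = 0.00565). Kcnh2, the ERG channel of the heart, had 231 and 287 against 405 and 401 counts, or 12.4 CPM ± 0.433 against 15.4 CPM ± 0.270 (SD, n = 2 each). Its log2 fold change was 0.31 (SE 0.20, adjusted p = 0.248), and it passed with library totals as scaling, at an adjusted p of 0.0235 within a range of 0.0235 to 0.757. Per length, Kcnh2 was at 2.55 and Kcnh6 at 0.713 CPM per kb in WT ESCs, and they were at 3.17 and 2.47 CPM per kb in Pim3-/- ESCs. Kcnh3 (94 and 106 against 203 and 196 counts, adjusted p = 0.0764) and Kcnh7 (28 and 30 against 102 and 53, adjusted p = 0.0856) were just outside the threshold. Exons of Kcnh7 share 696 bases with Gca on the other strand. Without either WT library the call of Kcnh6 was lost, and its adjusted p ranged from 6.96e-11 to 0.0638.

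Of the calcium- and sodium-activated channels, Kcnt1 rose. Kcnt1 (chr2:25863734-25918273, plus strand, GRCm38) encodes the sodium-activated channel Slack. It had 3 and 5 counts in WT against 63 and 54 in Pim3-/- ESCs, or 0.189 CPM ± 0.0454 against 2.23 CPM ± 0.188 (SD, n = 2 each). The log2 fold change was 3.51 (SE 0.50, adjusted p = 0.00502), and the adjusted p under the alternatives did not exceed 0.0481. Its paralogue Kcnt2 had 16 and 8 against 8 and 22 counts (log2 fold change -0.03, SE 0.68). Kcnma1, the BK channel, had 1 and 3 against 6 and 5 counts and was not tested. None of the 4 SK and IK genes (Kcnn1 to Kcnn4), all tested, passed. Kcnn1 had 114 and 113 counts in WT and 124 in Pim3-/- replicate 1, but 392 in Pim3-/- replicate 2, so that the clones differed 3.27-fold in CPM and the log2 fold change was 0.86 (SE 0.50, adjusted p = 0.213).

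The inward rectifiers contributed 4 of the 15 genes that went up, from 5 tested genes and 15 members. These channels pass potassium more readily into the cell than out of it and hold the membrane near its resting potential. Kcnj4 (Kir2.3, chr15:79483714-79505241, minus strand, GRCm38) had 45 and 49 counts in WT against 232 and 185 in Pim3-/- ESCs, or 2.26 CPM ± 0.131 against 7.93 CPM ± 1.07 (SD, n = 2 each). The log2 fold change was 1.81 (SE 0.29, adjusted p = 0.00596). Kcnj12 (Kir2.2), of the same strong rectifiers, had 98 and 131 against 221 and 215 counts and did not pass (log2 fold change 0.61, SE 0.25, adjusted p = 0.0935). It did pass with library totals, without Pim3-/- replicate 1 and without Pim3-/- replicate 2 (adjusted p = 0.0152, 0.0268 and 0.0307, with a range of 0.0152 to 0.550 over all alternatives). Per length, Kcnj12 was above Kcnj4 in WT ESCs, 1.98 against 1.05 CPM per kb, and below it in Pim3-/- ESCs, 3.02 against 3.69 CPM per kb. Kcnj14 (Kir2.4) rose from 3 and 4 to 39 and 29 counts (log2 fold change 2.91, SE 0.55, adjusted p = 0.00919). Kcnj10 (Kir4.1), the main rectifier of glia, rose from 24 and 26 to 78 and 98 counts (1.48, SE 0.37, adjusted p = 0.0205). Kcnj2 (Kir2.1) stayed at 1 to 7 counts in every library and was not tested. Calls of Kcnj4, Kcnj14 and Kcnj10 were lost without either WT library, with highest adjusted p-values of 0.0611, 0.112 and 0.181 and lowest of 4.36e-11, 6.53e-05 and 8.55e-05.

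Both genes of the KATP channel of pancreatic islets were higher. This channel links metabolism to membrane potential and joins the pore Kir6.2, encoded by Kcnj11, with the receptor SUR1, encoded by Abcc8. Kcnj11 (chr7:46093953-46100764, minus strand, GRCm38) had 2 and 0 counts in WT against 25 and 11 in Pim3-/- ESCs. Its fitted log2 fold change of 3.68 (SE 1.00, adjusted p = 0.0273) rests on 2 WT counts, and the ratio of summed counts after scaling was 14.3, with an exact 95% interval of 3.69 to 123 for counting error only. The call was lost without either WT library and in the Wald test of DESeq2 (adjusted p 1.73e-04 to 0.231), and the log2 fold change was 7.08 without WT replicate 1, which leaves a single WT library at 0, and 2.56 without WT replicate 2. Abcc8 (chr7:46104523-46180033), which lies 3759 bases away and was picked after its values were seen, had 2 and 2 against 60 and 24 counts (adjusted p = 0.00848). Kcnj8, the other pore gene of KATP channels, had 0 and 0 against 3 and 4 counts.

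Of the K2P genes, the best expressed one and a rare one rose. Kcnk5 (chr14:20140057-20181809, minus strand, GRCm38), described above, went from 37.4 CPM ± 2.31 to 57.1 CPM ± 0.757 (SD, n = 2 each), a log2 fold change of 0.61 (SE 0.16, adjusted p = 0.0235). This was the smallest fold change among the 15 genes, in the member with the most counts. Kcnk2 (TREK-1), a channel opened by membrane stretch and lipids, had 4 and 4 against 19 and 18 counts (1.85, SE 0.56, adjusted p = 0.0389), and lost its call under 7 of 9 alternatives (adjusted p 0.0150 to 0.353). Kcnk4 (TRAAK), of the same mechanically gated type, had 215 and 254 against 320 and 235 counts (log2 fold change -0.09, SE 0.24), and with library totals the value turned to 0.36. Its exons share 587 bases with Catsperz on the same strand, so counts of these genes are uncertain. Kcnk1 (TWIK-1, 103 and 125 against 148 and 183 counts) and Kcnk6 (TWIK-2, 136 and 141 against 274 and 212) had log2 fold changes of 0.21 and 0.47 and adjusted p-values of 0.563 and 0.179. The call of Kcnk5 was lost without either WT library (adjusted p 1.07e-04 to 0.362).

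Among 15 auxiliary subunit genes, 6 were tested and 2 were higher. Kcnip3 (chr2:127456498-127522094, minus strand, GRCm38) encodes KCHIP3, a calcium-binding partner of Kv4 channels that is also known as the transcriptional repressor DREAM. It had 48 and 48 counts in WT against 204 and 209 in Pim3-/- ESCs, or 2.31 CPM ± 0.273 against 7.88 CPM ± 0.328 (SD, n = 2 each), a log2 fold change of 1.77 (SE 0.28, adjusted p = 0.00610). Kcnip2, another KCHIP gene, had 98 and 127 against 113 and 83 counts (log2 fold change -0.52, SE 0.29, adjusted p = 0.198). Kcnmb4 (chr10:116417861-116473878, minus strand, GRCm38), a beta subunit of BK channels, rose from 8 and 3 to 60 and 40 counts (2.80, SE 0.61, adjusted p = 0.0135). Its exons share 355 and 693 bases with the antisense genes Kcnmb4os1 (2 and 0 against 13 and 11 counts) and Kcnmb4os2 (5 and 5 against 30 and 21), and whether counting used the strand is not given in the sources used here. Kcnab3, which encodes a Kvbeta protein, had 131 and 133 against 133 and 74 counts (log2 fold change -0.69, SE 0.34, adjusted p = 0.146) and was called lower without Pim3-/- replicate 1, at -1.16. Kcnab2, another Kvbeta gene, had 26 and 19 against 93 and 48 counts (1.29, SE 0.47, adjusted p = 0.0690). Calls were lost for Kcnip3 without either WT library (adjusted p 1.59e-09 to 0.0701) and for Kcnmb4 without WT replicate 2 (1.25e-06 to 0.119). The log2 fold change of Kcnmb4 was 3.74 without WT replicate 1 and 2.09 without WT replicate 2.

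**Figure D3:**
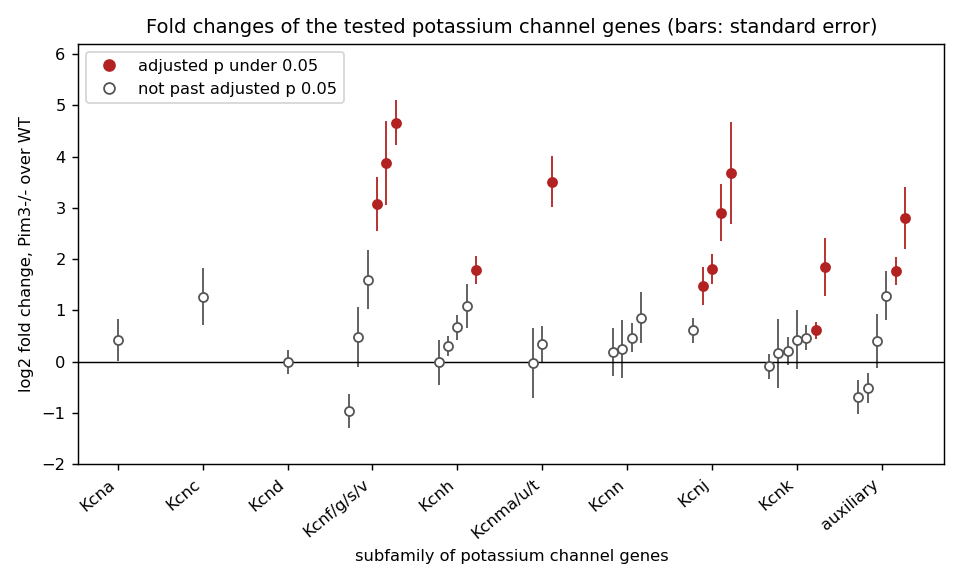
Log2 fold change (Pim3-/- over WT, y axis) of 39 tested potassium channel genes, grouped by subfamily along the x axis. Points are genes, bars are SEs from the fit, and filled points passed an adjusted p of 0.05. Filled points occur in 6 of the 10 subfamilies shown, all above 0, and Kcns3 is the lowest point at -0.97.

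By subfamily, summed levels per length were higher in both Pim3-/- libraries than in both WT libraries for inward rectifiers (3.42 and 3.84 CPM per kb in WT, 8.69 and 8.00 in Pim3-/- ESCs), for K2P channels (17.8 and 18.8 against 25.8 and 25.0), for the Kcnh group (4.60 and 4.53 against 7.57 and 7.53) and for the silent subunits (2.88 and 3.32 against 5.23 and 4.13). The same held for all other subfamilies except Kcnc and Kcnd. The Kcnc and Kcnd sums overlapped, those of Kcnd with 1.80 and 2.09 against 1.89 and 2.04 CPM per kb. Much of the K2P sum was Kcnk5, which averaged 11.0 CPM per kb in WT and 16.8 in Pim3-/- ESCs. Median log2 fold changes of tested genes ranged from -0.01 for Kcnd, with a single gene, to 2.34 for the silent subunits. All tested silent subunits but Kcns3 had under 10 counts in both WT libraries and passed the filter through the Pim3-/- libraries. That filter favours a high median here, and Kcns3 itself was at -0.97. These sums and medians are descriptions of few genes each and were not tested.

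The 49 members that did not pass the filter on low counts had, in sum, 68 and 107 counts in WT libraries against 193 and 283 in the Pim3-/- libraries. After scaling, 38 of them had more and 6 had fewer in Pim3-/- ESCs. Other genes that did not pass the filter were not counted in this way. This direction is therefore not shown to be particular to potassium channel genes. There were 13 with at least 10 counts in 1 library. Kcna6 (Kv1.6) had 0 and 0 against 12 and 7 counts, which is at least 2.49-fold higher, and Kcnc1 (Kv3.1) had 0 and 0 against 8 and 13, at least 2.78-fold higher, with the WT libraries set to 3 counts each. Both passed the test when no filter was applied (adjusted p = 0.0316 for Kcna6 and 0.0243 for Kcnc1), and no other of these members did. Exons of Kcna6 share 2355 bases with the antisense gene Gm26673 (0 and 0 against 7 and 2 counts). Whether counting used the strand is not given, so the counts of Kcna6 are uncertain. Kcns2 (1 and 3 against 15 and 6) and Kcnk3 (TASK-1, 5 and 5 against 14 and 9) also had more counts in both Pim3-/- libraries than in either WT library. Kcne2, a single-pass accessory subunit, had 2 and 0 against 15 and 6 counts. Without Pim3-/- replicate 2, the log2 fold changes of Kcne2 and Kcns2 were 3.39 and 2.48. That fit keeps only the clone in which they were higher, so it is no test of them.

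Other sparse members differed between the clones. Kcnmb2, a BK beta subunit, had 4 and 3 counts in WT, 0 in Pim3-/- replicate 1 and 60 in Pim3-/- replicate 2. Kcnh1 (4 and 5 against 8 and 32), Kcnq1 (2 and 5 against 3 and 20), Kcng3 (6 and 1 against 7 and 17) and Kcnc2 (1 and 6 against 0 and 12) also had most of their counts in Pim3-/- replicate 2. Without Pim3-/- replicate 1, the log2 fold changes of Kcnmb2, Kcnh1, Kcnq1 and Kcng3 were 3.73, 2.48, 2.16 and 1.91. That fit keeps only the clone in which they were higher, so it is no test of them. Without Pim3-/- replicate 2 they did not pass the filter. Of members with fewer counts in Pim3-/- ESCs, Kcnab1 had 9 and 15 against 7 and 8, Kcnj6 had 9 and 10 against 7 and 6, and Kcnj3 had 5 and 25 against 9 and 7. Kcnh8, with 7 and 8 against 0 and 1 counts, stayed under 10 counts in every library and was picked after its values were seen. The remaining untested members had no more than 9 counts in any library, and 20 members had at most 3 counts in each.

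**Figure D4:**
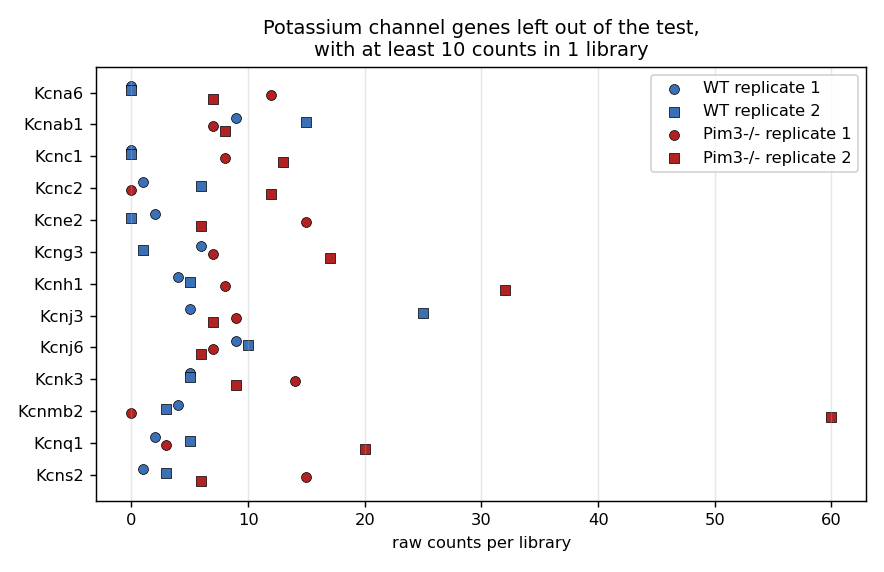
Counts per library of the 13 potassium channel genes that were not tested but reached 10 counts in at least 1 library. Each point is a library, and the x axis is the raw count. Kcnmb2 reaches 60 counts in a single Pim3-/- library, and Kcna6 and Kcnc1 have no WT counts.

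The clones were somewhat further apart than the WT samples. Over tested members, the median ratio of the higher to the lower CPM was 1.28 between the Pim3-/- libraries (43 genes) and 1.15 between the WT libraries (41 genes without a 0). The ratio exceeded 2 for 5 and 6 genes. The IK channel gene Kcnn4 (21 and 22 counts in WT, 48 and 17 in Pim3-/- ESCs) and the K2P gene Kcnk12 (15 and 13 against 32 and 8) had 1 clone above and 1 clone below the WT libraries in counts. Of the genes that went up, Kcnj11 had 25 and 11 counts in the clones, and Kcnip3, Kcns1, Kcnk2 and Kcnk5 had nearly the same counts in both.

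The start sites of the genes were compared in their sequence, with promoter windows of RefSeq for the build GRCm38.p6. Windows of 300 bases were found for 67 of the 92 members and for 8 of the 15 that went up. A window was called CpG-rich at a GC content of at least 55% and an observed to expected CpG ratio of at least 0.6. A gene with several windows counted as CpG-rich where any of them was, and with its highest number of CpG. All 8 of the genes that went up were CpG-rich, with a median of 27 CpG in the window, against 5 of 20 (25.0%) of the tested members that did not pass, with a median of 11.5, and 12 of 39 (30.8%) of the members not tested, with a median of 10. Of all tested genes with a window 62.0% were CpG-rich, and of those that were higher in Pim3-/- ESCs 64.6%. This is a description of few genes. No window was found for Kcng1, Kcng2, Kcnt1, Kcnj11 and Kcnj14, among others. The count rests on taking the best window of a gene. For Kcnip3 and Kcnk2 the CpG-rich windows lie inside the annotated gene, and those at the annotated start hold 8 and 6 CpG and are not CpG-rich. With only the window nearest to the annotated start, an alternative chosen after the data were seen, 6 of 8 genes that went up (75.0%), 4 of 20 tested members that did not pass and 58.5% of all tested genes were CpG-rich. Kcns3, which was not called, has a CpG-rich window with 32 CpG and another with 9. The 250 bases before the annotated or a nearby start are printed for 3 genes that rose, to show how widely they differ in CpG, 5′ to 3′ on the strand of the gene and with CpG in capitals. They are Kcnh6 (chr11:106007898-106008147, plus strand, 24 bases from the annotated start), Kcnj4 (chr15:79505242-79505491, minus strand) and Kcnip3 (chr2:127522095-127522344, minus strand).
Kcnh6: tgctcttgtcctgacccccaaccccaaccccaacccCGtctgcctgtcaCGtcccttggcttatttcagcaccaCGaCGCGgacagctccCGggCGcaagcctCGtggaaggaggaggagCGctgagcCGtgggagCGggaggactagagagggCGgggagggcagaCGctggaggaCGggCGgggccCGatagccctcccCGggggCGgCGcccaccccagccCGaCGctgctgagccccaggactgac
Kcnj4: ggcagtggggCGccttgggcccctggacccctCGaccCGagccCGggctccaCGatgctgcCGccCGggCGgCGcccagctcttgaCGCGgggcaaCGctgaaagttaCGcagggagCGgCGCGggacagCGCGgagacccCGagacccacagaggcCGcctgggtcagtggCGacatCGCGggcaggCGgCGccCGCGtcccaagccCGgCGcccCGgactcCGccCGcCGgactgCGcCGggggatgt
Kcnip3: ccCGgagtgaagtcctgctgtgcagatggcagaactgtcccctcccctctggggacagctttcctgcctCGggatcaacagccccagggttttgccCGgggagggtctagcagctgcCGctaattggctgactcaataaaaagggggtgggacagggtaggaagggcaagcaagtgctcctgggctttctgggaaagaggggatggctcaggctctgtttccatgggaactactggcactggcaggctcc
The stretches hold 21, 35 and 4 CpG. The stretch of Kcnh6 also holds TTCAGCACC, 186 bases before the start, followed after 7 bases by GGACAGC. These are the letters of the left and right part of RE1, the element bound by the neuronal repressor REST. They were searched on both strands because they had been read in this sequence, so their presence among the members is no finding, and 12 of 27025 genes with a window (0.0444%) hold both on 1 strand. The match is a match of letters and says nothing of binding.

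**Figure D5:**
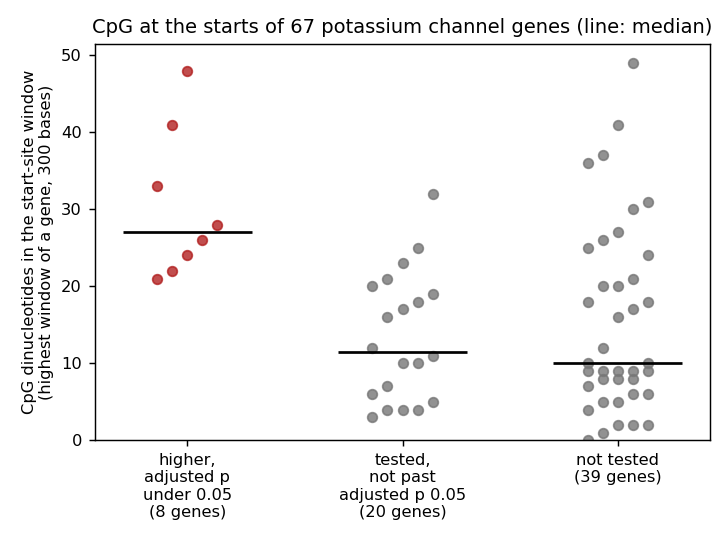
Number of CpG in the 300-base promoter window of each of the 67 potassium channel genes with a window, by outcome in the comparison of Pim3-/- with WT ESCs. Each point is a gene. The 8 genes that were higher have 21 to 48 CpG, and the 20 tested genes that did not pass have 3 to 32.

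By position, Kcng1, Kcns1, Kcnip3 and Kcnt1, all among the genes that went up, lie on chromosome 2, which holds 10 members, 7 of them tested. Of all tested genes of chromosome 2, 18.5% were higher, with a median log2 fold change of 0.10. Kcns1 is at chr2:164163619-164171113 on the minus strand. Exons overlap those of another gene in 28 members, 4 of them among the 15 that went up. Besides Kcnmb4, these include Kcng2 (272 bases with D330025C20Rik on the other strand, which had 1 and 1 counts in WT against 7 and 4). Kcnk2 shares 604 bases with A430027H14Rik, which had 0 counts in every library.

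Other ion channel and transporter genes gave a mixed picture. The 37 potassium transport genes with other names included HCN channels, KATP receptors, auxiliary subunits, sodium-potassium pumps and cotransporters. Of these genes, 26 were tested, 7 were higher and 1 was lower, with a median log2 fold change of 0.38. Of all tested genes, 17.6% were higher and 16.2% lower. Hcn2, which carries a pacemaker current, had 152 and 165 counts in WT against 735 and 485 in Pim3-/- ESCs (1.61, adjusted p = 0.00562). Hcn4, its relative of the sinus node, had 0 and 1 against 32 and 106 counts (adjusted p = 0.00656). The gene that was lower was Atp1a4, the pump subunit of sperm, with 22 and 20 against 3 and 6 counts (log2 fold change -2.52, adjusted p = 0.0167). Dpp6, an auxiliary subunit of Kv4 channels that was picked after its values were seen, had 8 and 9 against 46 and 138 counts (3.10, adjusted p = 0.0116).

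Of 40 voltage-gated sodium and calcium channel genes, 28 were tested, 9 were higher and 1 was lower, with a median log2 fold change of 0.75. The shares over all tested genes, 17.6% higher and 16.2% lower, apply here too. Cacna1h, a T-type calcium channel, had 27 and 18 counts in WT against 575 and 435 in Pim3-/- ESCs (4.13, adjusted p = 0.00215). Cacna1b, the N-type channel of synapses, had 4 and 18 against 208 and 189 (3.86, adjusted p = 0.00425), and Cacna1s, the L-type channel of skeletal muscle, had 17 and 20 against 268 and 134 (3.10, adjusted p = 0.00467). The gene that was lower was Cacng7, which encodes an auxiliary subunit (log2 fold change -0.60, adjusted p = 0.0302). All 9 of the higher genes in this list were at least 3-fold higher.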

How the data were processed

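RNA-seq libraries of 2 WT samples and 2 Pim3-/- clones of the line E14 were used. The authors deposited raw counts per gene, which were used as deposited. The paper names Cutadapt, Hisat2, mm10 and Ensembl genes, and the submitters' processing notes name Trim Galore, STAR, featureCounts and GRCm38. Which made this table, their versions and the use of strand are not given in the sources used here. Members were found by symbol, and the members and gene lists were chosen with earlier results of these data known. Named genes are those past an adjusted p of 0.05, the 10 highest per length, untested members with at least 10 counts in 1 library and up to 3 genes per other list. Some genes are counted but not reported here by name.

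Of 31418 genes with counts, filterByExpr (minimum count 10, minimum total 15) kept 18444. The groups were compared with the quasi-likelihood test of edgeR 4.0.16 (limma 3.58.1, R 4.3.3) after TMM scaling, and p-values were adjusted by Benjamini-Hochberg over all tested genes. The scripts were tested on simulated data. Gene positions and exon lengths came from GENCODE M21 (GRCm38), and promoters from RefSeq. Figures were drawn with matplotlib 3.10.9 in Python 3.11.15. Alternatives were DESeq2 1.42.0 size factors and Wald test, library totals, 2 other filters, a replicate block and the omission of each library. The p-values measure only the spread between these 4 libraries. ChIP-seq and transposable element data were not analysed here.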

Additional observations from a re-analysis of the deposited data

How the results depend on the processing

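The count of potassium channel genes higher in Pim3-/- ESCs, 15, was 12 to 16 with DESeq2 size factors, without a filter and with the Wald test. Of all tested genes, 16.2%, 9.1% and 13.9% were higher under these settings. It was 24 with library totals and 6 with at least 10 counts in every library, and the count at least 3-fold higher, 12, was 3 under that filter, where only 27 members were tested. One member, Kcns3, was lower with DESeq2 size factors, without a filter, with the Wald test and with the replicate block, and 0 were lower otherwise with all libraries kept. With the replicate block 15 members were higher, 1 lower and 11 at least 3-fold higher, while 18.5% of all tested genes were higher and 17.7% lower. The labels do not say whether same-numbered libraries were paired. Deviations of same-numbered libraries correlated at 0.0196 over all tested genes and 0.111 over members. With 2 libraries per group, and clones that differ from each other, these correlations cannot decide it. The median log2 fold change of tested members, 0.61, was 1.06 with library totals and 1.36 without a filter (87 members). With 1 library left out at a time, 3 to 22 members were higher, 0 to 3 lower, 3 to 16 at least 3-fold higher, and the median was 0.61 to 0.91. The log2 fold change of Kcnd1 turned to 0.44 with library totals, 0.07 with at least 10 counts in every library, and 0.02 and 0.03 without WT replicate 2 and without Pim3-/- replicate 1. That of Kcnk4 turned to 0.36 with library totals. With 1 library left out, Kcnd1 lay between -0.16 and 0.03 and Kcnk4 between -0.32 and 0.08, positive for Kcnk4 without Pim3-/- replicate 2. With library totals, 16 of the 26 tested other potassium transport genes were higher and 1 was lower. Of the 28 tested sodium and calcium channel genes, 18 were higher and 0 lower. That scaling shifted all genes alike, with 35.8% of all tested genes higher and 5.92% lower. The cause of these shifts was not tested. With 2 libraries per group and few counts for most members, a member that did not pass the test is not shown to be even. With the promoter window nearest to the annotated start, chosen after the data were seen, 6 of 8 genes that went up were CpG-rich.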
